A study of Mus musculus with 8 samples.

Results

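A set of 10 genes that cells switch on within minutes of a disturbance were followed across 8 naive mouse corneas. These are the immediate early genes Fos, Fosb, Fosl1, Jun, Junb, Egr1, Atf3 and Ier3 and the inducible heat shock genes Hspa1a and Hspa1b. They were chosen by name, with earlier results of these data known. Their Ensembl identifiers were matched to gene symbols of the GRCm38 mouse assembly, and each of the 10 has 1 row among the 54532 genes of the deposited table. All 10 were among the 25402 genes with a mean value of at least 0 that entered the tests. The study had set the low-lymphangiogenic strain BALB/c, which it also calls BALB/cN, against the high-lymphangiogenic strain C57BL/6N, in a search for genes that regulate the growth of lymphatic vessels. Total RNA of 4 naive corneas of each strain was sequenced, that is, of uninjured and untreated corneas, and only male mice were used. Neither strain carried an engineered allele. The age of the mice that were sequenced, whether the 4 corneas of a strain came from 4 mice, how the corneas were dissected and how long that took are not given in the sources used here. Handling and the resting state of the tissue cannot be told apart in any level given below, and the amount of stroma, lens and pigment cell transcripts differed between the corneas.

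The values are regularized log2 (rlog) values, a log2 scale on which each value has been drawn towards the mean of its gene, the more so the fewer reads the gene has. A difference of 1 on this scale stands for a ratio of at least 2. Because the shrinkage hides part of the change of weakly expressed genes, read counts recovered from the same table are given beside the rlog values as normalized reads, that is, reads divided by the size factor of the cornea. The recovered libraries held from 29.7 to 41.2 M reads in genes. In whole-tissue RNA, fewer cells of a type and less RNA per cell cannot be told apart.

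Immediate early genes need no new protein for their induction. Kinase cascades act on transcription factors that already sit at their promoters, above all serum response factor with its ternary complex partners, and factors of the CREB and ATF family, which bind the letters TGACG. Fos and Jun proteins pair to form AP-1, which binds TGANTCA and drives the genes that follow, while Atf3 can form pairs with Jun proteins and responds to many kinds of stress. The heat shock genes are driven by heat shock factor 1, which binds repeats of GAA and TTC. In the cornea, Fos, Jun and Egr1 are known for their quick response to epithelial wounding, and removing a tissue can set off the same program before the RNA is fixed.

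The promoters are shown first, since the genes that moved together below can be compared there. RefSeq windows of build GRCm38.p6 were at hand for 8 of the 10 genes and held 250 bases before the start site; Fosl1 and Egr1 were not among them. For Atf3 the RefSeq start lies inside the longer gene of the annotation. The last 150 bases before the start are printed 5′ to 3′ on the strand of the gene for the 3 genes that were highest in the same cornea (Fos, Fosb and Atf3), for the 2 genes whose strains did not overlap (Jun and Junb) and for the heat shock pair. Capitals mark TGACG or its reverse complement and, in Fos, TATAAA on the strand of the gene, and in Jun the letters TGANNTCA. In Hspa1a and Hspa1b they mark GAANNTTC or TTCNNGAA.
Fos, chr12:85473740-85473889, plus strand: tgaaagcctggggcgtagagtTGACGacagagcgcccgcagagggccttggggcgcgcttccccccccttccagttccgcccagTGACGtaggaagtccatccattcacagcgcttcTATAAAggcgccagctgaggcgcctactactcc
Fosb, chr7:19310046-19310195, minus strand: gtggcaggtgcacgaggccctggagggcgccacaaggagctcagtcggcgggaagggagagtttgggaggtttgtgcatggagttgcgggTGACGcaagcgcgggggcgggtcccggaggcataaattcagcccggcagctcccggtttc
Atf3, chr1:191183334-191183483, minus strand: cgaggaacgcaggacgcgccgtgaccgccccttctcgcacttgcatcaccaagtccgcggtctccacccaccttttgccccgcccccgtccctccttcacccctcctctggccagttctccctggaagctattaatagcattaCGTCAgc
Jun, chr4:95052223-95052372, minus strand: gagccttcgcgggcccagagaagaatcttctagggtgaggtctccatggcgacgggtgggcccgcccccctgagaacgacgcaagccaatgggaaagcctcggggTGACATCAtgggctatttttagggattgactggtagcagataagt
Junb, chr8:84978749-84978898, minus strand: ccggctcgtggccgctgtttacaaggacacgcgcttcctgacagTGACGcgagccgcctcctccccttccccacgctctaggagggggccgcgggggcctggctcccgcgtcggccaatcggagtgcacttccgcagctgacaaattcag
Hspa1a, chr17:34972157-34972306, minus strand: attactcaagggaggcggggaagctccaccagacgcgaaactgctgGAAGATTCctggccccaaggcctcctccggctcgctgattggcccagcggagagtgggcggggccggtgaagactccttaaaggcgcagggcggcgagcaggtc
Hspa1b, chr17:34959239-34959388, minus strand: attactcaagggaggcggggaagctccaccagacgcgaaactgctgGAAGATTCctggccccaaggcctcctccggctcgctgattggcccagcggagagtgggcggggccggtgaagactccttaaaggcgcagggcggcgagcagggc

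TGACG on either strand was found in the 250 bases before the start of 4 of the 8 genes, namely Fos, Fosb, Junb and Atf3, and in 17.8% of all 32536 windows of this length. In Fos it stood at 129 and again at 66 bases before the start, in Fosb at 60, in Junb at 106 and in Atf3 at 7. GAANNTTC or TTCNNGAA was found in Hspa1a and Hspa1b, in both at 104 bases before the start, and in Jun, against 12.9% of all windows. TGANNTCA was found in Jun alone, against 11.9%, and TATAAA in Fos alone, against 7.55%. The palindromic letters of AP-1, TGANTCA, were found in none of the 8 windows and in 6.73% of all, and the CArG box of serum response factor in none and in 1.48%. CCAAT was found in 5 of the 8 and in 33.8% of all windows, and GCGNGGGCG, the letters of Egr1, in 1 and in 4.74%. All motifs but TATAAA were searched on both strands. These are matches of letters, and no binding was measured. Bases outside the windows, and the promoters of Fosl1 and Egr1, were not searched, so a motif not found here may lie elsewhere. The windows of Hspa1a and Hspa1b were 98.8% identical, with 3 differences in 250 bases.

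The level of the 10 genes in these naive corneas spanned a wide range. Scaled to exon length and to the recovered library size (RPKM), Hspa1b had the highest median over the 8 corneas, 208, with a range from 152 to 306. Junb followed with 115 (83.5 to 141), then Hspa1a with 83.6 (74.8 to 120), Ier3 with 69.7 (55.9 to 74.6), Jun with 28.7 (23.3 to 34.9), Fos with 17.0 (13.2 to 32.2) and Egr1 with 13.1 (4.77 to 20.99). Fosb was at 1.47 (0.833 to 8.62), Fosl1 at 0.292 (0.0948 to 0.465) and Atf3 at 0.258 (0.109 to 2.54). Neighbours in this order whose ranges overlapped were Junb and Hspa1a, Jun and Fos, Fos and Egr1, Egr1 and Fosb, and Fosl1 and Atf3. The length used is that of the union of all annotated exons of a gene, 6243 bases for Fosb and 2352 for Fos, so a gene with many alternative exons reads lower than its main transcript would.

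**Figure D1:**
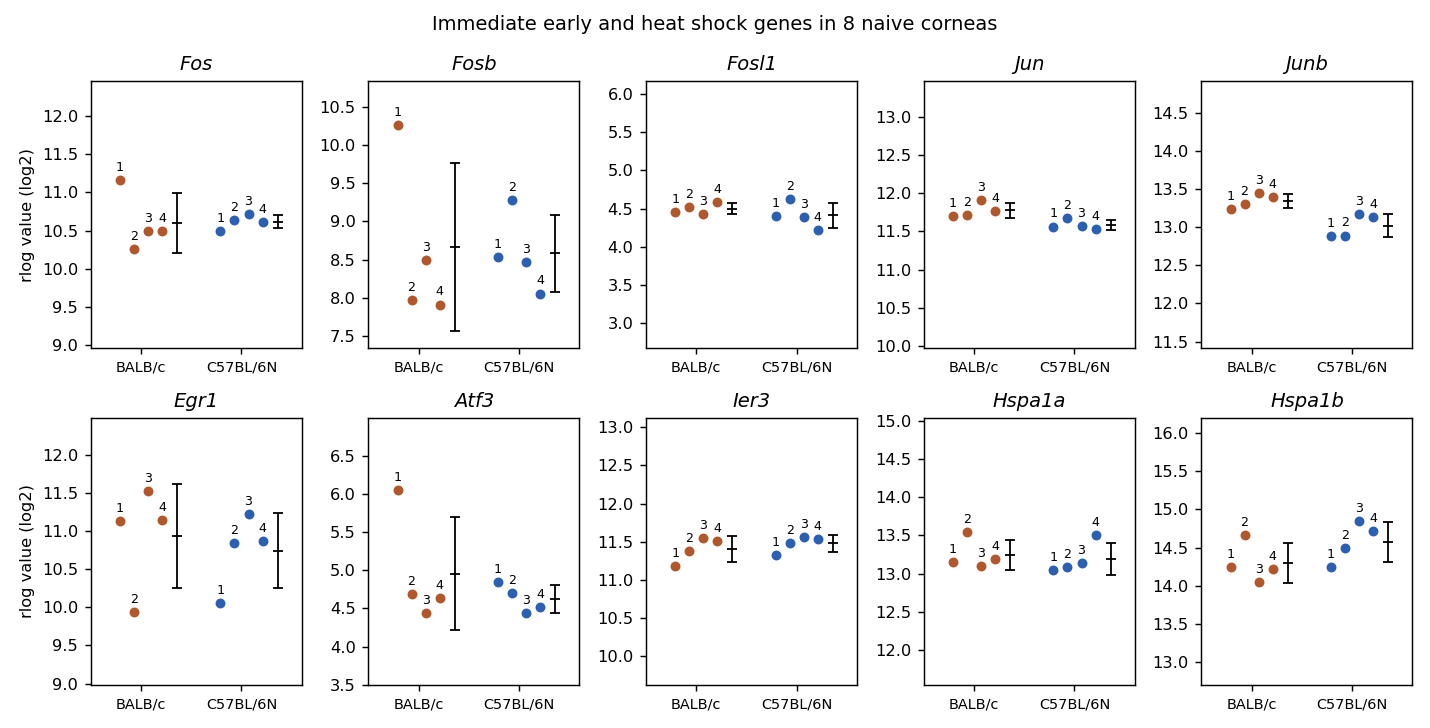
The rlog value (log2 scale, vertical axis) of each of the 10 genes is plotted for the 4 BALB/c and the 4 C57BL/6N corneas, numbered by replicate, with the mean ± SD of each strain as a black bar; all panels span the same number of log2 units. BALB/c replicate 1 stands far above the other corneas in Fosb (10.27) and Atf3 (6.05), and the strains do not overlap in Jun and Junb.

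Fos (ENSMUSG00000021250, chr12:85473890-85477273, plus strand), the partner of Jun in the classical AP-1 dimer, was well expressed in every cornea. Its rlog values were 11.17, 10.25, 10.50 and 10.49 in BALB/c replicates 1 to 4 and 10.50, 10.64, 10.71 and 10.61 in C57BL/6N replicates 1 to 4. In normalized reads this was 2615, 1112, 1408 and 1399 against 1406, 1612, 1722 and 1570. BALB/c replicate 1 was the highest and BALB/c replicate 2 the lowest of all 8 corneas, while the C57BL/6N corneas lay within 0.21 of each other. The strain means were 10.60 ± 0.39 and 10.62 ± 0.09 (SD, n = 4 each), and the difference, BALB/c minus C57BL/6N, was -0.01 with a 95% interval from -0.39 to 0.36 (limma adjusted p = 0.973).

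Fosb (ENSMUSG00000003545, chr7:19302696-19310051, minus strand) encodes a close relative of Fos that also pairs with Jun proteins. It had rlog values of 10.27, 7.98, 8.49 and 7.91 in BALB/c and of 8.54, 9.28, 8.46 and 8.06 in C57BL/6N. The corresponding normalized reads were 1857, 199, 344 and 185 against 361, 746, 335 and 217. Fosb in BALB/c replicate 1 was thus 9.32 times the median of the other BALB/c corneas, and 10.04 times the lowest cornea. In C57BL/6N, replicate 2 was the highest, at 2.23 times the median of the other 3. The strain difference was 0.08, with a 95% interval from -1.01 to 1.17 (limma adjusted p = 0.945). It became -0.46 without BALB/c replicate 1.

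Fosl1 (ENSMUSG00000024912, chr19:5447547-5455946, plus strand), which encodes Fra-1, was hardly expressed. Its rlog values were 4.46, 4.53, 4.42 and 4.59 in BALB/c and 4.40, 4.62, 4.39 and 4.22 in C57BL/6N, from 7 to 35 recovered reads a cornea. The cornea with high Fosb was not high in Fosl1. The strain difference was 0.09 (95% interval -0.13 to 0.30; limma adjusted p = 0.620).

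Jun (ENSMUSG00000052684, chr4:95049034-95052222, minus strand), the partner of Fos in AP-1, had rlog values of 11.71, 11.72, 11.91 and 11.77 in BALB/c and of 11.56, 11.68, 11.57 and 11.53 in C57BL/6N. Every BALB/c cornea was above every C57BL/6N cornea, by 0.03 between the closest corneas. The mean difference was 0.19 (95% interval 0.05 to 0.33; limma adjusted p = 0.0842), which missed the threshold of 0.01 that the study used. In normalized reads the strains had means of 3593 ± 325 and 3008 ± 187 (SD, n = 4 each).

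Junb (ENSMUSG00000052837, chr8:84974484-84978718, minus strand) encodes a Jun family member that is abundant in epithelia and can hold back the activity of Jun. It was the most strongly expressed of the 8 immediate early genes, with rlog values of 13.24, 13.30, 13.44 and 13.39 in BALB/c and of 12.88, 12.89, 13.18 and 13.13 in C57BL/6N. In normalized reads these were 9779, 10369, 11798 and 11230 against 7061, 7097, 9257 and 8847. The strains did not overlap, and within C57BL/6N the corneas fell into a lower pair, replicates 1 and 2, and a higher pair, replicates 3 and 4. The mean difference of 0.32 (95% interval 0.14 to 0.50) had the smallest p-value of the 10 genes, and it missed the threshold of 0.01 (limma adjusted p = 0.0304). The corneas of the higher pair, and BALB/c replicate 2, were also the ones poor in stromal transcripts that are described with the heat shock genes. Without these 3 corneas the difference was 0.47 (limma adjusted p = 0.00985), and with the mean level of the stromal list as a covariate it was 0.36 (limma adjusted p = 0.00184). Under median centring it was 0.25 (limma adjusted p = 0.319), without the corneas rich in lens and pigment cell transcripts 0.35 (limma adjusted p = 0.140), and with recalibrated p-values the adjusted p of limma was 0.807.

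Egr1 (ENSMUSG00000038418, chr18:34859823-34864984, plus strand) encodes a zinc finger factor that binds GC-rich promoters and is among the first genes to respond to a growth factor or a wound. Its rlog values were 11.13, 9.94, 11.52 and 11.14 in BALB/c and 10.05, 10.84, 11.22 and 10.87 in C57BL/6N. In normalized reads the lowest cornea had 770 and the highest 3434, a ratio of 4.46. One cornea of each strain was far below its fellows, BALB/c replicate 2 with 770 and C57BL/6N replicate 1 with 856, and neither was the lowest of its strain in Fosb. BALB/c replicate 3 had the most Egr1 and an unremarkable 1408 normalized reads of Fos. The strain difference was 0.19 (95% interval -0.57 to 0.95; limma adjusted p = 0.782). Without the stroma-poor corneas it was 0.82 (limma adjusted p = 0.0961), and without BALB/c replicate 2 alone 0.52.

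Atf3 (ENSMUSG00000026628, chr1:191170296-191218039, minus strand), a stress-induced factor of the ATF and CREB family, was near silent in 7 corneas and clearly present in 1. The rlog values were 6.05, 4.69, 4.44 and 4.63 in BALB/c and 4.85, 4.70, 4.44 and 4.52 in C57BL/6N. In normalized reads this was 189, 22, 9 and 18 against 32, 22, 9 and 13. BALB/c replicate 1 had 10.2 times the median of the other BALB/c corneas. The strain difference of 0.33 (95% interval -0.37 to 1.03; limma adjusted p = 0.572) rested on that cornea and was -0.04 without it.

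BALB/c replicate 1 was therefore the highest of all 8 corneas in 3 of the 10 genes, Fos, Fosb and Atf3, and BALB/c replicate 3 in another 3, Jun, Junb and Egr1. In Ier3, BALB/c replicate 1 was the lowest. Among all genes tested, 12, or 0.0472%, were more than 1 log2 unit above every other cornea in BALB/c replicate 1. Atf3 was one of them, and Fosb fell just short with 0.99. The other genes of the 12 included the lens crystallins Crybb2, Crygb, Crygd, Cryaa, Crygc and Crygs and the lens gene Lgsn. These were named after their values were seen. Transcripts of lens and of pigment cells were high in this cornea: the 8 lens markers summed to 8441 normalized reads, and the 6 pigment cell markers to 19134. BALB/c replicate 4 was the only other cornea of this kind, with 3269 for lens and 43288 for pigment cells, against 219 to 599 and 209 to 3758 in the other 6. Fosb and Atf3 were not high there, with 185 and 18 normalized reads. The part of the lens and pigment cell transcripts in the levels of these genes was not tested.

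Another immediate early gene showed a different pattern over the same corneas. Nr4a3, an orphan nuclear receptor that was singled out after its values were seen, had 306, 6, 30 and 409 normalized reads in BALB/c and 25, 17, 20 and 14 in C57BL/6N. Its relative Nr4a1 had 90, 36, 24 and 114 against 7, 15, 4 and 16. Both were high in BALB/c replicates 1 and 4, the corneas with lens and pigment cell transcripts, and the third member of the family, Nr4a2, was not (1463, 1634, 1541 and 1316 against 2161, 2211, 2739 and 2377). The difference between the strains was 1.08 for Nr4a3 (95% interval -0.15 to 2.32; limma adjusted p = 0.275) and 0.69 for Nr4a1 (limma adjusted p = 0.0429).

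**Figure D2:**
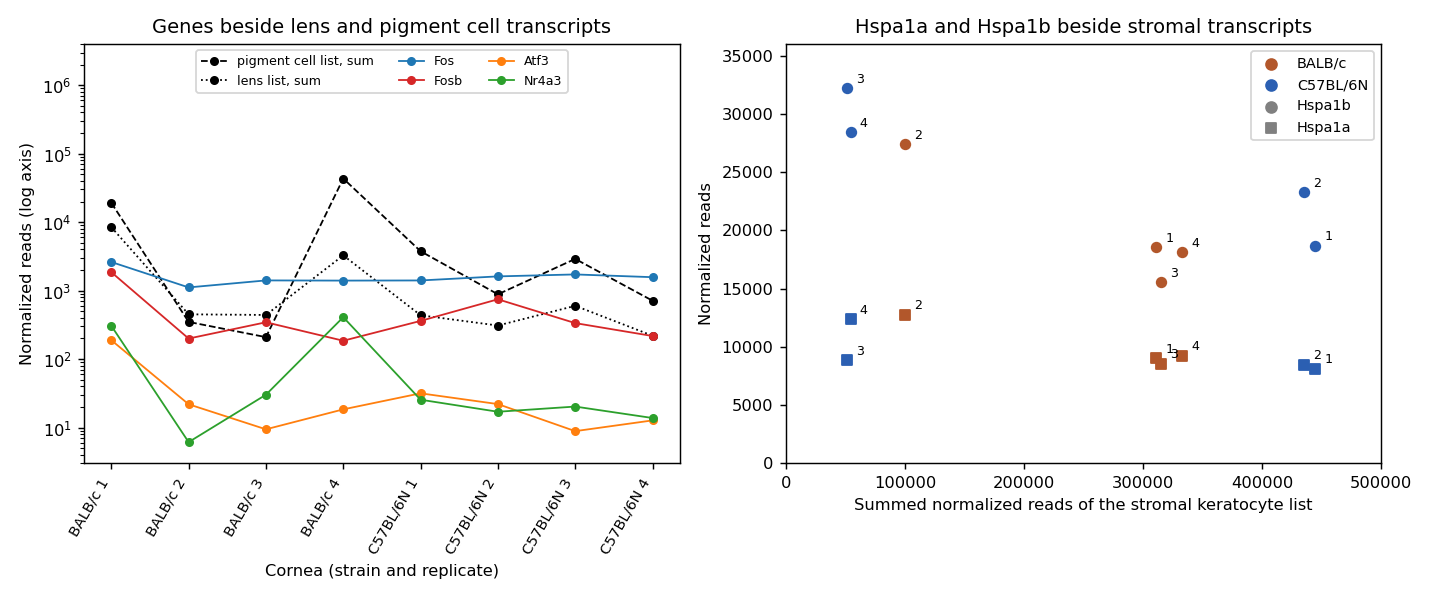
Left, normalized reads on a log axis of Fos, Fosb, Atf3 and Nr4a3 in each of the 8 corneas beside the summed normalized reads of the pigment cell and lens marker lists. Right, normalized reads of Hspa1b (circles) and Hspa1a (squares) against the summed normalized reads of the stromal keratocyte list, with the replicate number beside each cornea. Fosb and Atf3 peak in BALB/c replicate 1 only, Nr4a3 in BALB/c replicates 1 and 4, and the 3 corneas at the left of the right panel have the 3 highest values of Hspa1b.

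Ier3 (ENSMUSG00000003541, chr17:35821684-35822923, plus strand), whose product acts on cell survival and is a target of NF-kappaB, was steady. Its rlog values were 11.18, 11.38, 11.55 and 11.51 in BALB/c and 11.32, 11.49, 11.57 and 11.54 in C57BL/6N. From the lowest to the highest cornea its normalized reads differed 1.43-fold, and the strain difference was -0.07 (95% interval -0.27 to 0.13; limma adjusted p = 0.663). Replicate 1 was the lowest of either strain.

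Hspa1a and Hspa1b (ENSMUSG00000091971, chr17:34969190-34972156, and ENSMUSG00000090877, chr17:34956436-34959238, both on the minus strand) encode the inducible Hsp70 chaperone and lie next to each other. Both were strongly expressed in all 8 corneas. Of the stretches of 100 bases in the transcripts of Hspa1a, 48.6% were also found in another gene, and of those of Hspa1b 49.9%. For the other 8 genes this share was 0. How the aligner and the counter divided such reads between the pair is not given in the sources used here, so the separate levels of Hspa1a and Hspa1b are uncertain.

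The rlog values of Hspa1a were 13.16, 13.54, 13.10 and 13.19 in BALB/c and 13.04, 13.09, 13.14 and 13.51 in C57BL/6N. BALB/c replicate 2 and C57BL/6N replicate 4 stood above the other 6 corneas, with 12763 and 12367 normalized reads against 8107 to 9245. The strain difference was 0.05 (95% interval -0.22 to 0.32; limma adjusted p = 0.836). Hspa1b had rlog values of 14.24, 14.67, 14.05 and 14.22 in BALB/c and of 14.25, 14.49, 14.85 and 14.71 in C57BL/6N. Its 3 highest corneas were C57BL/6N replicate 3 with 32221 normalized reads, C57BL/6N replicate 4 with 28439 and BALB/c replicate 2 with 27377, and the other 5 had 15554 to 23274. The difference of -0.28 had a 95% interval from -0.62 to 0.06 (limma adjusted p = 0.307).

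These 3 corneas were the ones poor in transcripts of the stroma, the collagenous layer under the epithelium. The 9 keratocyte markers, among them Kera, Lum and Col1a1, summed to 99890 normalized reads in BALB/c replicate 2 and to 51150 and 54554 in C57BL/6N replicates 3 and 4, against 310842 to 444673 in the other 5. The 8 markers of the corneal epithelium were high in every cornea, with sums from 1897230 to 2271060, and their 3 highest sums were in the same 3 corneas. Among the 5 stroma-rich corneas this order did not hold: C57BL/6N replicates 1 and 2 had the most stromal transcripts and also the most Hspa1b. The part of the tissue layers in its level was not tested. Transcripts of white blood cells were present as well, and their part in these levels was not tested: the 9 macrophage markers summed to 1284 to 2417 normalized reads, of which Cd68 gave 903 to 1381, and 5 of the 8 neutrophil markers, among them Ly6g and Mpo, were at 0 in all corneas.

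**Figure D3:**
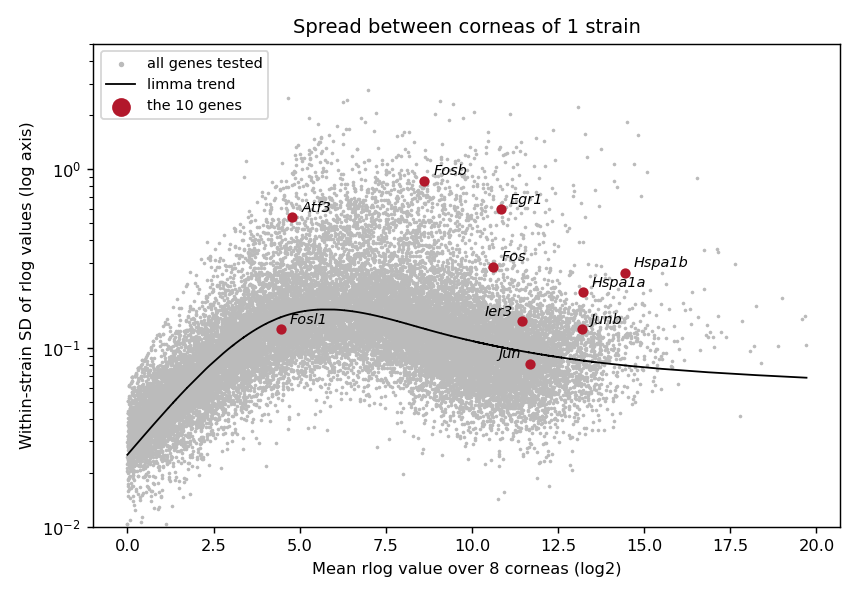
The within-strain standard deviation of the rlog values (log axis) is plotted against the mean rlog value for all 25402 genes tested (grey), with the trend that limma fitted (line) and the 10 genes in red. Fosb, Egr1, Atf3, Fos and the heat shock pair lie above the trend, and Jun and Fosl1 lie just below it.

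The spread between corneas of 1 strain set the genes apart more than the strain did. The within-strain SD of Fosb was 0.86 on the rlog scale, 6.71 times the SD that the trend over all genes gives at its level. For Egr1 the ratio was 5.91, for Atf3 3.47, for Hspa1b 3.30, for Fos 2.76 and for Hspa1a 2.42. Junb (1.49) and Ier3 (1.47) were moderately above the trend, and Jun (0.867) and Fosl1 (0.860) below it. A ratio above 2 was found for 6 of the 10 genes, against 10.2% of all genes tested, and the median ratio was 2.59 against 1.02. Part of this rested on 1 cornea: without BALB/c replicate 1 the ratio was 1.09 for Fos, 1.05 for Atf3 and 3.45 for Fosb, 4 of the 10 genes were above 2 against 11.01% of all genes, and the median was 1.298. Without any other single cornea 5 or 6 genes were above 2. In the lists described below, 5 of 37 further immediate early genes (median ratio 1.31) and 7 of 23 further heat shock genes (1.08) were above 2. So were 5 of 14 stress genes linked to Atf3 (1.85), 2 of 17 secreted genes (1.28) and 0 of 20 regulators (0.835). A wide spread was not particular to the 10 genes. Median ratios were higher for markers of pigment cells (13.2), stromal keratocytes (12.4), lens (6.48), corneal endothelium (5.71), macrophages (2.95) and vessel endothelium (2.92). They were lower, 1.09 to 1.88, for corneal epithelium, skeletal muscle, photoreceptors, red blood cells, conjunctiva, neutrophils and mast cells. Egr1 (6.4), Hspa1b (3.60) and Hspa1a (2.59) kept their spread without BALB/c replicate 1. The genes did not vary as 1 block: Fos, Fosb and Atf3 were highest in the same cornea, Egr1 was lowest where Hspa1a was highest, Junb was highest in the same cornea as Egr1, BALB/c replicate 3, and Ier3 was lowest in the cornea where Fos, Fosb and Atf3 were highest. The mean rlog value over the 37 further immediate early genes was highest in BALB/c replicate 1, at 9.77 against 9.58 to 9.67 in the other 7 corneas. Their summed normalized reads ranked only 7 from the highest there, at 181292 against 177455 to 222798 in the other corneas.

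**Figure D4:**
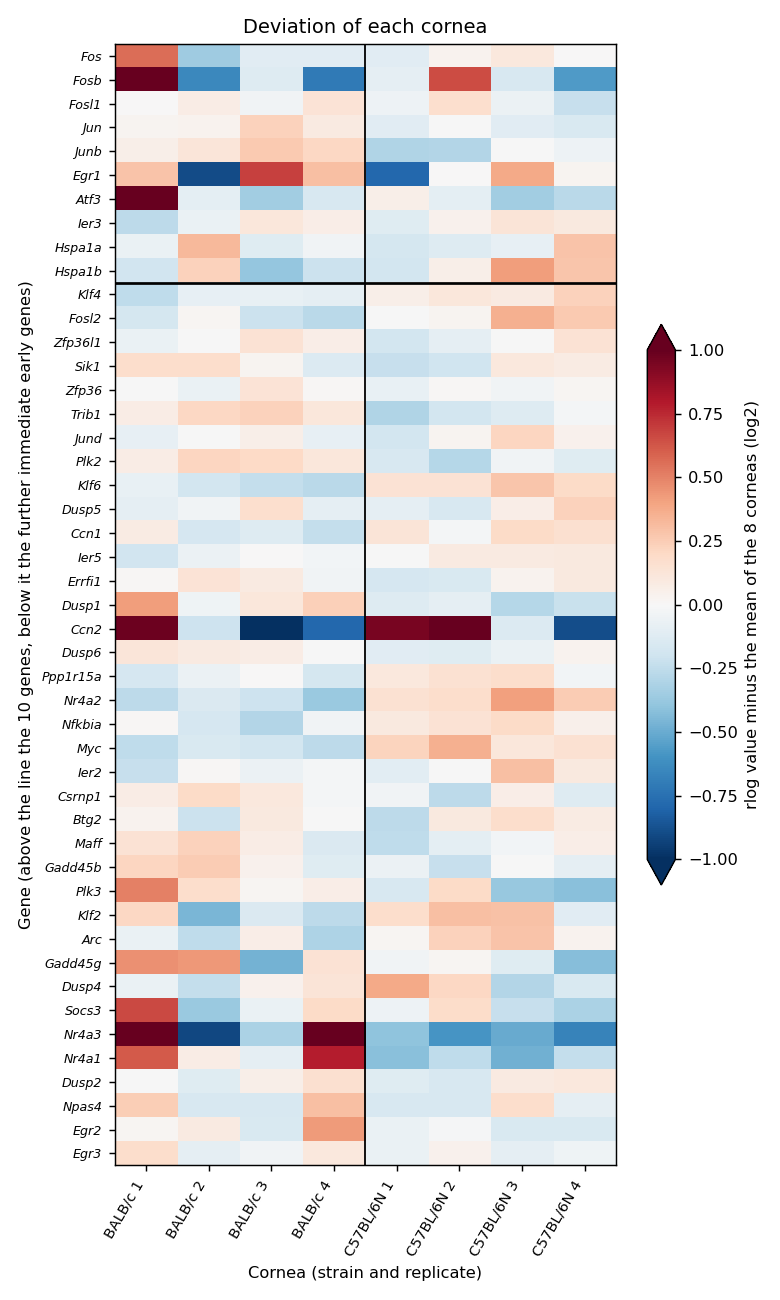
Each cell gives the rlog value of a gene in 1 cornea minus the mean of the 8 corneas (log2, colour scale from -1 to 1, values beyond drawn in the end colour), with the 10 genes above the horizontal line and 37 further immediate early genes below it in order of their mean level. BALB/c replicate 1 is red in Fos, Fosb and Atf3, and of the 37 further genes 6 have their highest value there, against 1 to 10 in each of the other corneas.

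For likeness, the strain means were taken off and each gene was correlated with Fos over the 8 corneas. Fosb had a Pearson r of 0.86 and ranked 210 among 25401 genes, and Atf3 had 0.82 and ranked 338. Both were, like Fos, highest in BALB/c replicate 1, and r without that cornea was not computed. Egr1 followed with 0.49, and the other 6 members had values below 0. Among genes outside the set with a mean of at least 100 reads, the 5 most alike were 4933421O10Rik (0.94), Mtmr3 (0.94), Nsun4 (0.93), Arsk (0.93) and 9330151L19Rik (0.92), none of which is an immediate early gene of the lists used here. For Hspa1a the r with Hspa1b was 0.74, and the 5 most alike genes outside the set were BC002059 (0.98), Fam187b (0.98), Rsl1d1 (0.97), Cyth3 (0.97) and Slu7 (0.97), again none from the lists. These correlations describe 8 corneas that differ in the layers they hold, and with so few points many genes reach such values.

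Between the strains, none of the 10 genes passed the threshold, against 5.74% of all genes tested (limma, adjusted p of 0.01 or less). At an unadjusted p under 0.05 there were 2, Jun and Junb, against 23.7% of all genes, and limma voom on the recovered reads also called none. In 2 of the 10, again Jun and Junb, the strains did not overlap, against 18.3% of all genes. Differences were positive in 7 of the 10, and in 13406 of all 25402 genes tested. The median difference of the 10 was 0.08, against 0.01 over all genes tested. The shares that passed or did not overlap are near the background or below it. The share of positive differences is higher, but 10 genes are too few to set it apart from the background. Of the positive differences, those of Fosb, Fosl1, Egr1, Atf3 and Hspa1a turned negative in some alternatives. The negative ones of Fos and Ier3 turned positive in some. At an adjusted p of 0.05 or less 1 of the 10, Junb, passed, against 11.2% of all genes. The intervals of Fosb (-1.01 to 1.17) and Atf3 (-0.37 to 1.03) reached past 1 log2 unit, so they do not exclude a difference of that size. Labels and methods do not say that the 4 corneas of a strain are separate animals, so the p-values measure only the spread between these samples.

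**Figure D5:**
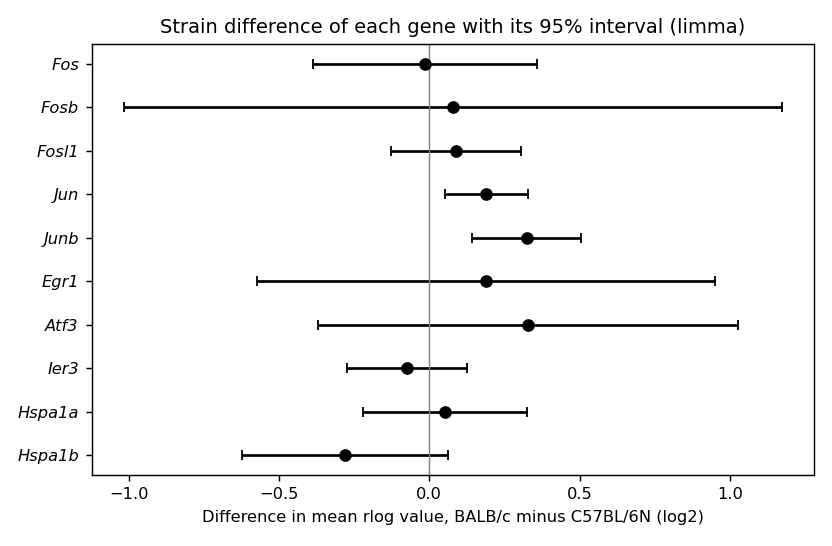
The difference in mean rlog value between BALB/c and C57BL/6N (log2, horizontal axis) is given for each of the 10 genes as a point, with its 95% interval from limma over 4 corneas a strain. The intervals of Jun and Junb lie to the right of 0 and the other 8 include 0.

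The further immediate early genes were a list of 38, of which Egr4 was at 0 in all corneas and 37 were tested. Of these, 3 were lower in BALB/c and none was higher, against 2.91% of all genes called lower and 2.83% called higher. They were Nr4a2, an orphan nuclear receptor (difference -0.50 ± 0.07 SE, limma adjusted p = 0.00214), Klf6, a zinc finger factor of injured epithelia (-0.38 ± 0.06, limma adjusted p = 0.00236), and Myc, the driver of cell growth (-0.42 ± 0.07, limma adjusted p = 0.00263). In all 3 the strains did not overlap: Myc, for example, had 1269, 1404, 1364 and 1261 normalized reads in BALB/c and 1996, 2253, 1798 and 1861 in C57BL/6N. The median difference over the 37 genes was 0.04. None of the 3 stayed past the threshold without the BALB/c corneas rich in lens and pigment cell transcripts, a fit with 2 BALB/c corneas, or with the recalibrated p-values described under the processing. With those p-values no gene at all passed.

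The 23 further heat shock genes include the co-chaperones Dnajb1, Bag3 and Hsph1. Against 2.91% of all genes called lower and 2.83% called higher, 1 of the 23 was lower in BALB/c and none was higher. That gene was Hspa8, the constitutive Hsp70, with a difference of -1.89 (95% interval -2.21 to -1.57; limma adjusted p = 3.0e-05). It had 641, 877, 614 and 648 normalized reads in BALB/c and 4164, 5840, 3346 and 3277 in C57BL/6N. Of the stretches of 100 bases in its transcripts, 28.2% were also found in 1 of 7 other genes, 5 of which had reads, so its level is uncertain, and how reads were divided between the copies was not tested. The median difference of the list was 0.03.

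In the remaining lists the inducers and targets of the program were compared. Of 14 stress genes linked to Atf3, such as Atf4 and Ddit3, none passed, against 5.74% of all genes tested. At an unadjusted p under 0.05 there were 4, where all genes gave 23.7%, and voom called none. Without C57BL/6N replicate 2, 1 gene of the list, Chac1, passed. The 3 with the highest level were Cdkn1a, an inhibitor of the cell cycle (-0.31, limma adjusted p = 0.0357), Atf4, the factor of the integrated stress response (-0.28, limma adjusted p = 0.185), and Hspa5, the chaperone of the endoplasmic reticulum (-0.07, limma adjusted p = 0.758). Of 20 regulators, among them Srf, Creb1, Hsf1 and the kinases above them, 1 (5%) was called, against 5.74% of all genes tested. That gene was Mrtfa, the actin-sensing partner of serum response factor, and it was lower in BALB/c (-0.32 ± 0.06 SE, limma adjusted p = 0.00684). It was called in 10 of 21 alternatives. The call was lost without the corneas rich in lens and pigment cell transcripts, without the stroma-poor corneas, under median centring, with the recalibrated p-values, and without any single cornea other than BALB/c replicate 2 or C57BL/6N replicate 1.

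Among the genes for secreted products of wounded epithelium, Il6 was at 0 in all corneas and 17 were tested. Of these, 4 (23.5%) were lower in BALB/c and none was higher, against 2.91% of all genes called lower and 2.83% called higher. They were the neutrophil chemokines Cxcl2 (-1.26 ± 0.19 SE, limma adjusted p = 0.00243) and Cxcl1 (-0.65 ± 0.11, limma adjusted p = 0.00564), and the ligands of the epidermal growth factor receptor Ereg (-0.94 ± 0.08, limma adjusted p = 5.2e-05) and Areg (-0.62 ± 0.10, limma adjusted p = 0.00329). Cxcl2 had 1, 6, 11 and 7 normalized reads in BALB/c and 150, 150, 40 and 99 in C57BL/6N. Ereg had 291, 322, 322 and 340 against 977, 751, 750 and 811. All 4 genes lie on chromosome 5 between 90891241 and 91148432 (GRCm38). Without the corneas rich in lens and pigment cell transcripts 1 gene of the list was called, and without the stroma-poor corneas 2 genes were. Without BALB/c replicate 1 the count was also 1, without any other single cornea it was 2 or 3, and with the recalibrated p-values it was 0. Ereg was called in 20 of 21 alternatives, Cxcl2 in 16, Areg in 12 and Cxcl1 in 10. Among 8 neutrophil markers, 5 were at 0 in all corneas. S100a9 was lower in BALB/c (difference -1.54, limma adjusted p = 4.0e-05), and the other 2 had small positive differences, 0.02 for S100a8 and 0.15 for Csf3r. The list, most of it S100a9 in C57BL/6N, summed to 14 to 41 normalized reads in BALB/c and to 114 to 181 in C57BL/6N. Markers of the conjunctiva, the mucosa that borders the cornea, also differed between the strains. Of the 6, 4 were lower in BALB/c, against 2.91% of all genes, namely Krt13 (-2.51), Krt4 (-1.17), Krt19 (-0.97) and Muc4 (-0.48). Krt8 (0.40) and the goblet cell mucin Muc5ac (2.19) had positive differences that missed the threshold. In all 6 the strains did not overlap, against 18.3% of all genes. The conjunctiva list, most of it Muc4, summed to 523805 to 773092 normalized reads in BALB/c and to 886613 to 1119200 in C57BL/6N. The part of either list in the lower levels of the secreted genes, or of Nr4a2, Klf6, Myc and Mrtfa, was not tested. The lowest count of Cxcl2 of all corneas was in BALB/c replicate 1, the cornea with high Fosb and Atf3. All BALB/c counts of Cxcl2 were at most 11, so their order carries little weight, and a link was not tested.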

How the data were processed

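Total RNA of 8 naive corneas was sequenced as strand-specific paired reads of 100 bases. The authors removed ribosomal reads, aligned to genomes carrying each strain's variants, moved the alignments back to GRCm38 and assigned reads to genes by all their exons merged. The submitters' processing notes name TopHat2 2.1.1, HTSeq 0.7.1 and DESeq2 1.30. What the authors deposited is the regularized log2 value that DESeq2 computes, normalized for library size and shrunken towards each gene's mean, which lowers folds of weak genes.

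The strains were compared with limma 3.58.1 in R 4.3.3 on the rlog values (variance trend on the mean, no covariate, mean of at least 0), with Benjamini-Hochberg adjustment over 25402 genes and a threshold of 0.01, as the study used. The deposited values are not counts, so no count model is the main test. Read counts were recovered by inverting the rlog formula, with the constants at which values came out whole: within 0.1 of a whole number were 92.9% of values at means of 100 to 1000 reads and 70.2% at 1000 to 5000, and 25.1% above, so high counts are approximate. Recovered depth was 29.7 to 41.2 M reads in genes a cornea. Both steps were tested on simulated data. Gene positions and exon lengths are those of GENCODE M21 (GRCm38), promoters those of RefSeq (GRCm38.p6).

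Named are the 10 genes, up to 5 called genes of each of 5 pathway lists by size of difference (where none was called, the 3 of the highest level), the 5 genes most alike to Fos and to Hspa1a, and marker genes beside a result. The genes and lists were chosen with earlier results of these data known. Replicate numbers of the labels did not pair the samples: correlations of same-numbered corneas' deviations were 0.305, -0.53, -0.203 and -0.454. Alternatives were limma voom on the recovered reads, other variance models, filters, scalings, p-values recalibrated to an empirical null, a replicate block, a stromal covariate, leaving out each cornea, and, chosen after seeing the data, 2 sets of corneas left out and the spread without each cornea. The recalibration divided the test statistics by an SD of 1.668 taken from their interquartile range. It is not the fdrtool step of the study, and it left no gene called.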

Additional observations from a re-analysis of the deposited data

Results flagged for a closer look

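Among 23 named genes and 2 strains, 46 groups of 4 corneas were searched for a cornea whose gap to the next took a share of the group's range above Dixon's 95% critical value; 3 were found, where chance gives about 2.3. Atf3 in BALB/c replicate 1 had an rlog value of 6.05 against 4.44 to 4.69 in the other 3 BALB/c corneas. Hspa8 in BALB/c replicate 2 had 10.04 against 9.69 to 9.74, and Mrtfa in the same cornea had 11.45 against 11.30 to 11.32. In BALB/c replicate 2, which was poor in stromal transcripts, both remained below every C57BL/6N cornea.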

How the results depend on the processing

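Over 21 alternatives, the differences of the 10 genes gave 210 comparisons, of which 187 kept direction and call, 19 turned in sign and 4, all of Junb, newly passed. The other variance models, the filters, the empirical null, the replicate block and the looser threshold left every difference at its main value. Their comparisons could not turn in sign, so these counts overstate how far direction was put to the test. Hspa1b stayed negative (-0.41 to -0.18) and Jun and Junb positive in all 21. Reversed differences, none past the threshold, were Hspa1a -0.0211 under median centring and -0.0452 without BALB/c replicate 2; Fosb -0.11 with the stromal covariate; with the lens- and pigment-rich corneas left out Fosb -0.35, Egr1 -0.0094 and Atf3 -0.0602; and with the stroma-poor corneas left out Fos 0.15, Fosb -0.0154, Fosl1 -0.0226 and Ier3 0.00997. Leaving out single corneas gave ranges of -0.46 to 0.33 for Fosb, -0.0391 to 0.50 for Atf3, -0.20 to 0.10 for Fos, -0.0419 to 0.52 for Egr1 and -0.0452 to 0.16 for Hspa1a. Of the 10 genes, 1 (Junb) was called at an adjusted p of 0.05, after quantile normalization, with the stromal covariate, and without the stroma-poor corneas, and 0 when any single cornea was left out.

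All genes called numbered 1458; 958 under median centring (413 higher and 545 lower, against 718 and 740), 2414 with the stromal covariate, 2842 at an adjusted p of 0.05, 457 without the lens- and pigment-rich corneas, 852 without the stroma-poor ones, 951 to 1162 without single corneas, and 0 by limma with the empirical null (1730 at an unadjusted p under 0.05; voom called 1425). The further immediate early genes called, 3, became 1 under median centring, 5 after quantile normalization, 8 with the stromal covariate and at an adjusted p of 0.05, 0 without the lens- and pigment-rich corneas, 1 without the stroma-poor ones, 0 with the empirical null and 2 to 4 without single corneas. The further heat shock genes called, 1, became 2 at an adjusted p of 0.05, 0 with the empirical null, and stayed at 1 without single corneas. With the replicate number as a block, 554 genes, 0 of the 10, 0 further immediate early genes and 1 heat shock gene were called; the numbers do not pair the samples, so the block carries no weight here. Of the regulators 0 or 1, and of the secreted genes 1 to 3, were called without single corneas. The cause of these shifts was not tested. Weak genes are limited by depth: Fosl1 had 7 to 35 reads a cornea.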
